A study of Mus musculus with 8 samples.

Results

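The genes described here mark the 2-cell-like state, a transient condition in which a small minority of mouse embryonic stem (ES) cells express genes of the 2-cell embryo. They were chosen as the rows of the deposited RNA-seq table whose symbol was 1 of 10 listed names: Zscan4a, Zscan4c, Zscan4d, Zscan4e, Zscan4f, Tcstv1, Tcstv3, Zfp352, Duxf3 and Usp17la. Of these 10 genes, 6 had a row among the 19429 genes of the table. The other 4, Zscan4a, Zscan4e, Zscan4f and Tcstv1, matched no row by symbol, so only their sequences are described here.

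RNA was taken from the mouse ES cell line LF2, in which both alleles of Tet1 had been edited to add a C-terminal FLAG tag followed by a 2A peptide and a fluorescent protein. WT cells (lines 2 and 5) had otherwise wild-type TET1, and D2018A cells (lines 7 and 8) carried an alanine in place of an aspartate near the TET1 C-terminus, a change that weakens binding of TET1 to the O-GlcNAc transferase OGT. Each line was a clone derived on its own and was sequenced as 2 technical replicates, so that each genotype had 4 libraries, and both genotypes were grown in medium with LIF and serum. WT cells also carried a deletion distal to the editing site that D2018A cells lacked, so WT and D2018A differ in both. The study examined this with a further line that has wild-type TET1 and an intact copy of the region, which was not analysed here.

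In the mouse embryo, many genes are first transcribed at the 2-cell stage. Dux, a double homeobox transcription factor encoded in a repeat array, activates many genes of this stage, among them the Zscan4 cluster, whose zinc finger and SCAN domain proteins promote telomere lengthening in ES cells. In ES cell cultures this program is held off by chromatin repressors, and loss of the TET enzymes has been linked to its activation.

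The deposited table holds 1 expression value for each gene, the authors' mean of normalised reads over all libraries of their fit. No genotype comparison of the members was made, because it needs counts for each library. The values have no SD or n for the same reason. No row had a mean of 0, and the smallest mean was 0.0565. Ranks among all genes are therefore ranks among genes with a counted read. The sum of the mean column was 10937569 normalised reads, so a gene with a mean of 1 received about 1 read in a library of average depth.

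The Zscan4 genes lie side by side in a cluster on chromosome 7 and differ from each other at few bases, which bears on every value given for them. The stretch of coding sequence with the most differences among Zscan4b, Zscan4c, Zscan4d, Zscan4e and Zscan4f is shown because it is where reads can best tell the copies apart. It covers coding bases 625 to 724 within 1 exon, in GRCm38 coordinates and read 5′ to 3′ along each gene, and capitals mark bases that differ from Zscan4c.
Zscan4c, chr7:11009100-11009199, plus strand: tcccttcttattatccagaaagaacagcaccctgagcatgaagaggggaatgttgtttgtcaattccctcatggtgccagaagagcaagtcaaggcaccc
Zscan4f, chr7:11401293-11401392, plus strand: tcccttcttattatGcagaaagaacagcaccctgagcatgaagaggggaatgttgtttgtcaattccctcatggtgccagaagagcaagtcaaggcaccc
Zscan4d, chr7:11162718-11162817, minus strand: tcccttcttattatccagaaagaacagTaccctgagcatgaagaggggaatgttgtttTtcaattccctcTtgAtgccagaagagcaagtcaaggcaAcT
Zscan4b, chr7:10901591-10901690, minus strand: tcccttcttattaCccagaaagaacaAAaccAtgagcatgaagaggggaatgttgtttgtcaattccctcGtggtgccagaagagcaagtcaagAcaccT
Zscan4e, chr7:11307220-11307319, minus strand: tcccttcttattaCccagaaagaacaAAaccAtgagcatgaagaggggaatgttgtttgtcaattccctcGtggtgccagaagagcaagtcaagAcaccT

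Even in this stretch of 100 bases, Zscan4f differed from Zscan4c at 1 base, Zscan4d at 6 and Zscan4b and Zscan4e at 7. Zscan4b and Zscan4e were identical to each other here, and the Zscan4c stretch also occurs whole in Zscan4-ps2. Over the whole coding sequence of 1521 bases, Zscan4c and Zscan4f differed at 6 bases (99.6% identity) and Zscan4c and Zscan4d at 35 (97.7%). Zscan4b and Zscan4e differed at 4 of 1518 coding bases (99.7%). In the alignment of the 5 coding sequences, 65 of 1521 columns differed. The RefSeq promoters of Zscan4c and Zscan4d (GRCm38.p6) were likewise 97.2% identical over 289 aligned bases.

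The opposite case is the start of the coding sequence. The first 50 coding bases of Zscan4c, the length of 1 read, occur in transcripts of 9 genes of the Zscan4 cluster (Zscan4a to Zscan4f and Zscan4-ps1, Zscan4-ps2 and Zscan4-ps3). A read from here cannot be assigned to 1 copy.
Zscan4c, chr7:11006556-11006605, plus strand: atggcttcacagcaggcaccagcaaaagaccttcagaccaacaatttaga

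Tcstv1 and Tcstv3, genes first found as expressed variably at the 2-cell stage, differ from each other at more bases. Their coding sequences were 94.7% identical, with 27 differences in 510 aligned bases. The stretch of 100 bases with the most differences (coding bases 354 to 453) had 12, marked in capitals in Tcstv1, so reads from it separate the pair.
Tcstv3, chr13:120317920-120318019, plus strand: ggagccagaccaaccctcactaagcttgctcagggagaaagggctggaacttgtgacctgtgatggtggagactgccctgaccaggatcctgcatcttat
Tcstv1, chr13:119893642-119893741, minus strand: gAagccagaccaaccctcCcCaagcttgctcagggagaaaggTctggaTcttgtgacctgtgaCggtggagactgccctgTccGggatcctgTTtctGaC

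The share of a gene's 50-base transcript stretches that occur in no other annotated gene measures how much of it single-end reads of 50 bases can identify. It was lowest in the Zscan4 cluster. It was 11.0% for Zscan4e, 13.2% for Zscan4f and 14.5% for Zscan4c, with 36.4% for Zscan4a and 50.4% for Zscan4d. Outside the cluster it was 53.0% for Duxf3, 68.6% for Tcstv3, 79.9% for Usp17la, 85.0% for Tcstv1 and 92.9% for Zfp352.

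By exact matches, most stretches of Zfp352, a zinc finger gene, are its own, while most of those of Zscan4c are shared. The partners that held most of the shared stretches were close relatives. Of the Zscan4c stretches, 71.4% also occurred in Zscan4-ps2 and 65.3% in Zscan4f, and of the Zscan4d stretches 36.7% occurred in Zscan4c. For Duxf3, 32.5% occurred in AW822073 and 21.1% in Gm10807. For Usp17la, a gene of the USP17 family of deubiquitinases, the closest partner was Usp17le with 11.2%. Counting a stretch as shared also when it matched with 1 mismatch lowered the share in all 10 genes. It fell to 0.892% for Zscan4e, 4.18% for Zscan4c, 31.8% for Tcstv3 and 68.7% for Zfp352, which stayed the highest.

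**Figure D1:**
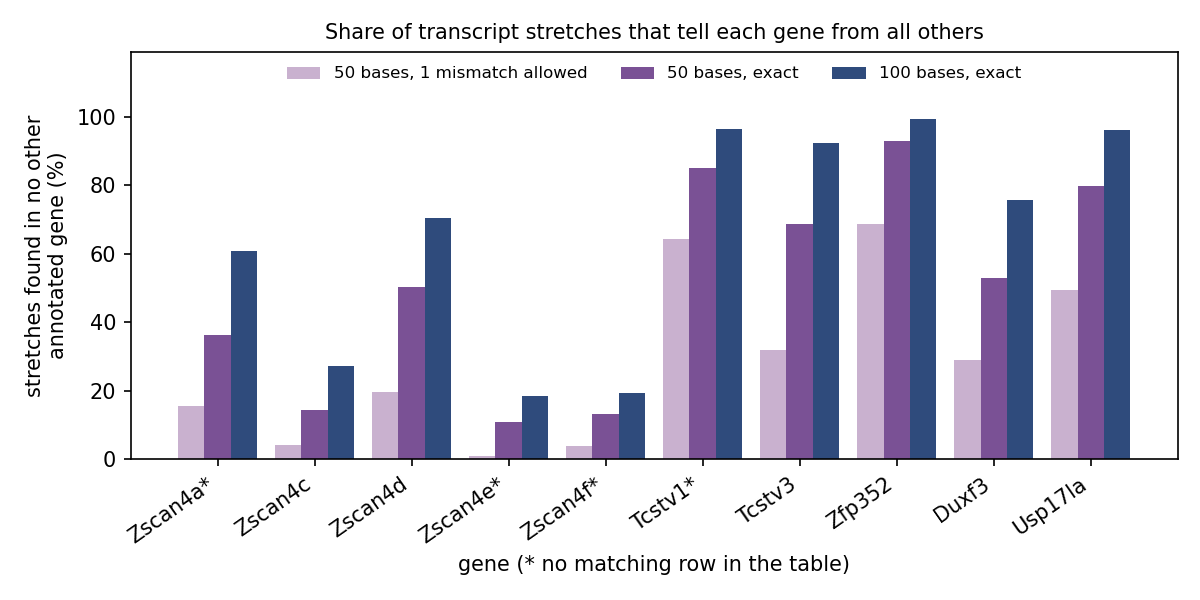
Share of transcript stretches found in no other annotated gene (y axis, percent) for each of the 10 listed genes (x axis), for stretches of 50 bases with 1 mismatch allowed, 50 bases matched exactly and 100 bases matched exactly. Exact shares at 50 bases run from 11.0% for Zscan4e to 92.9% for Zfp352, and a star marks the 4 genes with no matching row.

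All 6 genes with a row were low in the expression range, with a lower mean in 5.57% (Duxf3) to 29.0% (Usp17la) of all genes. Duxf3 (ENSMUSG00000075046, chromosome 10, 58229979 to 58232675, minus strand), the Dux family member at the head of the program, had the lowest of their means, 0.208 normalised reads. In the Zscan4 cluster, Zscan4c (ENSMUSG00000054272, chromosome 7, 11005745 to 11010547, plus strand) had a mean of 1.47. Zscan4d (ENSMUSG00000090714, chromosome 7, 11161374 to 11166159, minus strand) had a mean of 2.04.

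Among the other genes of the 2-cell stage, Zfp352 (ENSMUSG00000070902, chromosome 4, 90218820 to 90225702, plus strand) had a mean of 1.86. Tcstv3 (ENSMUSG00000095821, chromosome 13, 120316878 to 120318178, plus strand) had a mean of 0.333. Usp17la (ENSMUSG00000054568, chromosome 7, 104857009 to 104862667, plus strand) had a mean of 5.37. Thus 4 of the 10 listed genes had a mean of at least 1 normalised read, and none reached 10. Among all 19429 genes, 3242 had a mean of up to 1 and 6555 had a mean under 10.

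Levels were also taken per kb of exon, which allows for gene length but not for shared stretches. In this unit the order of the mean levels was Usp17la (2.02 normalised reads per kb), Zscan4d (0.898), Zfp352 (0.819), Zscan4c (0.646), Tcstv3 (0.428) and Duxf3 (0.0771). With no replicate values, which neighbours in this order differ beyond their error cannot be given. Of all genes, 28.8% had a lower mean per kb than Usp17la, 22.0% than Zscan4d, 19.3% than Zscan4c, and 4.78% than Duxf3. When length was counted only over stretches found in no other gene, Zscan4c came first at 4.57 reads per kb, ahead of Usp17la at 2.59 and Zscan4d at 1.82. The paper names STAR for the gene counts, but how reads from shared stretches were counted is not given in the sources used here. Which of the 2 orders is nearer to the true levels was therefore not settled.

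The relatives of these genes that are not among the 10 were at similar levels. Zscan4b, the remaining Zscan4 gene with a row, had a mean of 1.45, which is 0.807 reads per kb. The 4 other Usp17l genes with a row ran from 0.323 for Usp17ld to 5.90 for Usp17lc in mean reads. From a list of 40 further genes of the 2-cell embryo, 16 had a row. All 16 had a mean under 10, as did 6555 of all 19429 genes. Their median was 0.282 reads per kb against 0.732 for the 6 members. The highest were Tmem92 (3.57 reads per kb) and Usp17lc (2.40).

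By contrast, the known regulators of the program were well measured. All 5 listed activators had a row and a level above the median of all genes, 17.1 reads per kb. They were Trp53 (3073 reads per kb), which encodes p53 and can induce Dux after DNA damage, Nelfa (867), a subunit of the negative elongation factor, Smad7 (504), an inhibitor of TGF-beta signalling, and the paired DNA-binding proteins Dppa2 (214) and Dppa4 (123).

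All 24 listed repressors were also above the median of all genes, with a median of 345 reads per kb. The 8 with the highest mean reads are given here in order of their level per kb. Trim28, the corepressor that silences retroelements, had 6084, the zinc finger protein Zfp57 998, and nucleolin (Ncl), which acts with Trim28 at Dux, 809. The maintenance DNA methyltransferase Dnmt1 had 717, Chaf1b, a subunit of the chromatin assembly factor CAF-1, had 654, and the deubiquitinase Usp7 had 634. The H3K9 methyltransferase Setdb1 had 472, and Mga, a scaffold of a non-canonical Polycomb complex, had 369. Lin28a (678.5) and Max (606), with lower means, exceeded some of these per kb.

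**Figure D2:**
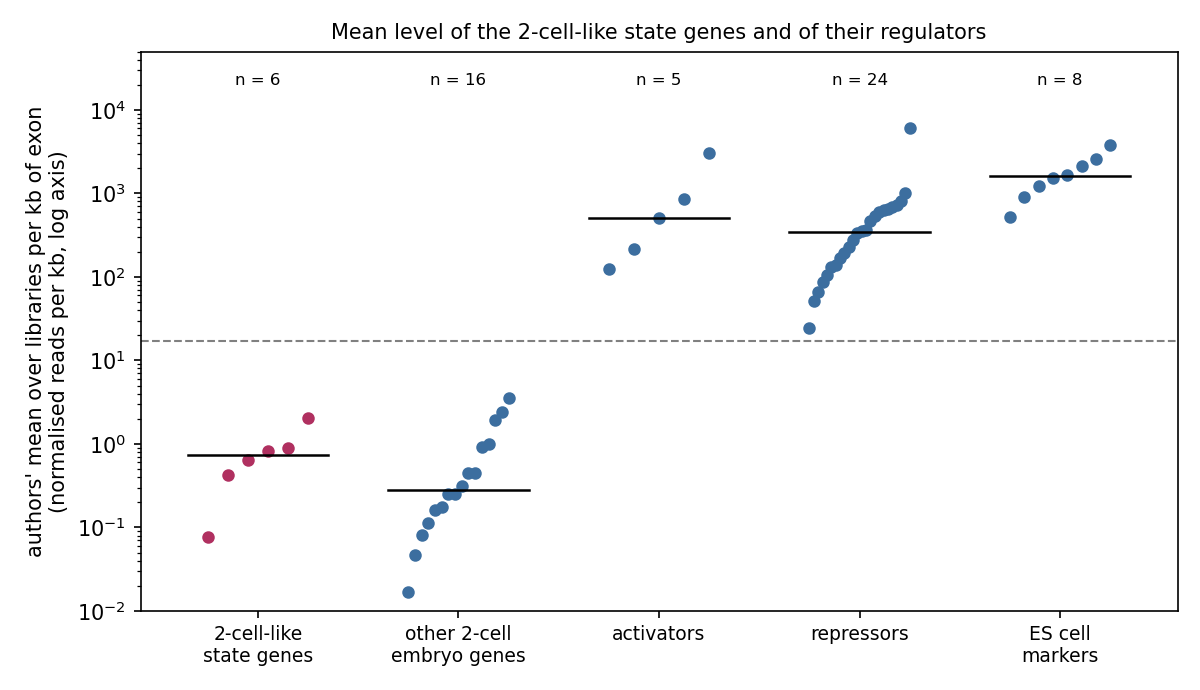
Authors' mean over libraries per kb of exon (y axis, normalised reads per kb, log axis) for the genes of 5 lists (x axis), 1 point per gene, with black lines at each list's median and a dashed line at the median of all genes, 17.1. The 6 members lie between 0.0771 and 2.02 and the 24 repressors between 24.1 and 6084.

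None of the 6 members was above the median of all genes and 5 of the 6 were under 10% of it, as were 5299 of 19342 genes. Genes whose proteins act at telomeres or in recombination beside Zscan4 were not low: 6 of 7 had a row and all 6 were above the median, led by Rif1 (276 reads per kb) and Terf2 (205). The ES cell label held, with all 8 pluripotency markers between 520.0 and 3817 reads per kb (Esrrb 3817, Tfcp2l1 1215). Each member's low value is 1 mean over all libraries of the fit, which were made from whole cultures. In such bulk samples, fewer cells in the 2-cell-like state and less RNA per cell cannot be told apart.

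The means of low genes could be taken further, because a single read in a single library adds a fixed amount to a gene's mean, set by that library's depth. Many genes therefore share the same few smallest values, 1 for each library. There were 12 such values, which gives 12 libraries, or columns of counts, behind the mean against the 8 samples described. Whether the further 4 are repeat runs of those samples or other samples cannot be told apart here. The libraries are lettered here from A, the deepest, with a size factor of 1.47, to L, the shallowest, with 0.726. The mean column does not name them, so none can be tied to WT, to D2018A or to 1 of the 8 samples, and what follows is a description of unlabelled libraries.

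Any mean that is a sum of whole reads times these values can be written as reads per library. Of 3242 genes with a mean of up to 1, 3240 had exactly 1 combination of reads that gave the written mean, 2 had more than 1 and 0 had none. Above a mean of 1 more than 1 combination often exists, and then the combination in the fewest libraries is given with the number of others. A count of 0 in a library allows up to 3 reads there, and this limit covers counting error only.

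Duxf3 had 2 reads in all, 1 in library I and 1 in library L, and this was the only combination. The gene at the head of the program was thus read in 2 of the 12 libraries. Of 2584 genes with a mean of up to 1, only 1 combination and at least 2 reads, 359 (13.9%) also had all reads in I and L. At 3 or more reads the count was 217 of 2109 (10.3%). Among genes with exactly 2 reads, the number Duxf3 had, the share was therefore well above 13.9%. Zscan4c had 15 reads, also by the only combination: 9 in I, 4 in L, 1 in C and 1 in J. The other 8 libraries had none. Library C, with 1 read, is deeper than I and L.

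For Zscan4d the combination in the fewest libraries had 19 reads, with 13 in L, 5 in I and 1 in H. The other 18 combinations spread 22 to 28 reads over at least 7 libraries, so the mean alone does not decide between them. For Zfp352 it had 18 reads, with 12 in L, 4 in I and 2 in A, and each of the other 7 combinations needed at least 7 libraries. In both genes, the fewest-libraries combination was high in the same libraries I and L in which the only combination of Zscan4c was high.

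Tcstv3 differed from these. Its 4 reads were all in library H, by the only combination, and none was in I or L. Reads of low genes often sat in 1 library, as 499 of 1717 decoded genes with at least 4 reads (29.1%) had all of them in 1 library. Usp17la was too high for its reads to be settled. Within at most 4 libraries, 1 combination placed 26 reads in I, 21 in L and 5 in K, and another placed none in I or L.

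Among the relatives, Usp17ld had 3 reads, 1 in I and 2 in L, by its only combination. Of decoded genes with at least 3 reads, 10.3% had all of them in I and L, and of those with at least 5 reads 6.1%. The share was thus higher among genes with as few reads as Usp17ld. Zscan4b had 7 reads in I and 7 in L, with 1 other combination over 9 libraries that placed 3 reads there, and Usp17lb had 7 in I and 8 in L, with 4 others over at least 8 libraries that placed as few as 1 there. Neither is settled by its mean. Usp17le, searched within 4 libraries, had 1 combination, with 28 of 40 reads in I and 9 in L. Combinations of Usp17le over more libraries were not searched, so it is not settled either. The value of Usp17lc was not settled, and its 2 combinations within 4 libraries placed 0 and 11 reads in I and L.

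**Figure D3:**
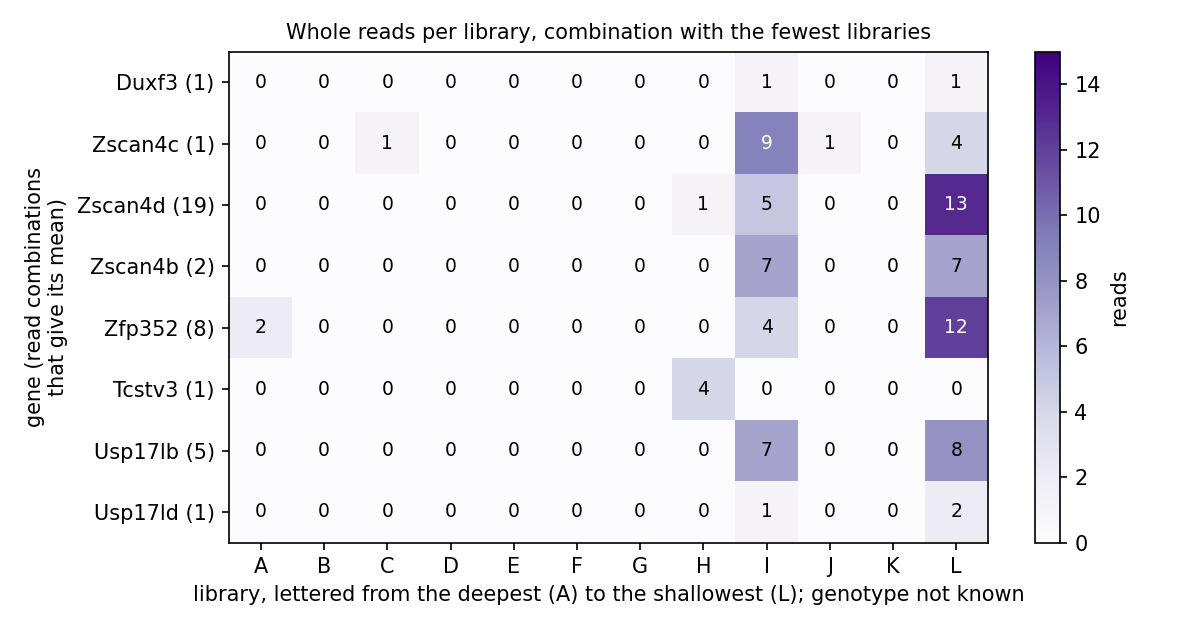
Whole reads (numbers and shading) of 8 genes (rows, with the number of combinations that give the deposited mean in brackets) in each of the 12 unlabelled libraries (columns, from the deepest, A, to the shallowest, L), taking the combination in the fewest libraries. Zscan4c has 9 reads in I and 4 in L, while the 4 reads of Tcstv3 are in H.

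Libraries I and L stood apart in low genes as a whole. By their size factors they held 13.0% of the depth, but 22.3% of the 14829 reads of the decoded genes. Library I alone held 13.3% of those reads on 7.18% of the depth, and 123 genes had a single read there and nowhere else, against 38 to 68 for each of the other libraries. The part of this wider excess in the members' values was not tested. Without the reads of I and L, in the combinations given above, the mean over the other 10 libraries was 0 for Duxf3, 0.10 for Zscan4d, 0.136 for Zfp352 and 0.209 for Zscan4c, and 0.652 for Usp17la. For Tcstv3 it was 0.40, since its reads were all outside I and L. The pair was picked after the members' reads were seen, so leaving it out lowers genes read there by that choice. The values of Zscan4d, Zfp352 and Usp17la are not settled. Other combinations placed as few as 0 reads in I and L for Zscan4d and Usp17la, and 1 for Zfp352.

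**Figure D4:**
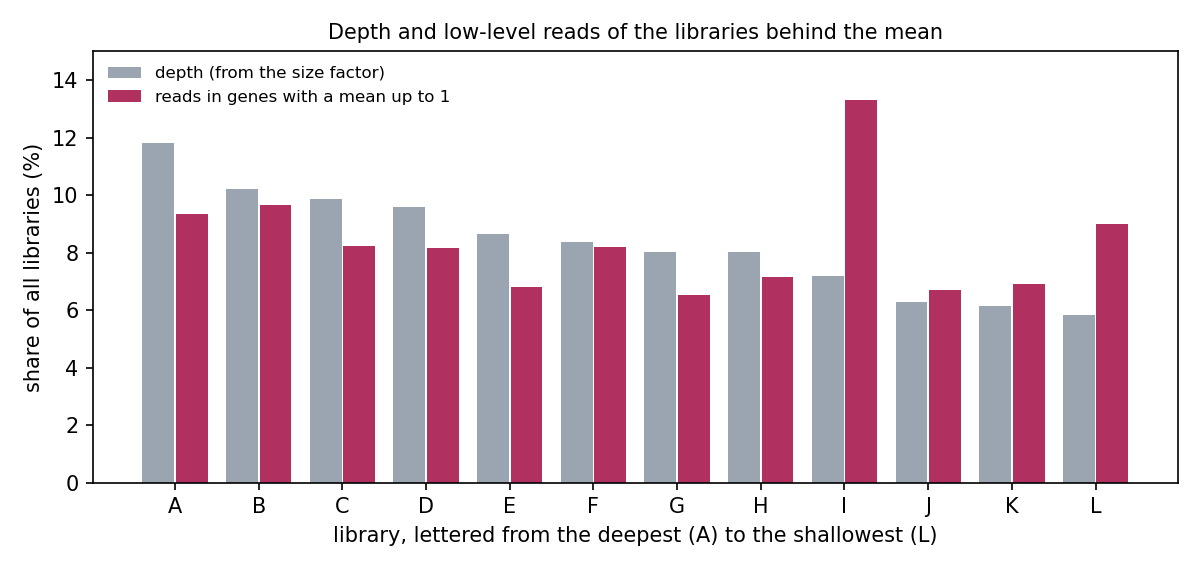
Share of the summed depth (grey bars, from size factors) and of the reads in genes with a mean of up to 1 (red bars), in percent (y axis), for each of the 12 unlabelled libraries (x axis). Library I has 7.18% of the depth and 13.3% of the low-level reads.

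The marker genes of other cell types were read in the same way. Of the 6 trophectoderm markers, Cdx2 had 12 of 14 reads in L and 2 in A in the combination with the fewest libraries. Its 1 other combination spread 18 reads over 9 libraries with 1 in L and none in I, so Cdx2 is not settled. Elf5 had 7 of its 14 reads in H and 2 in I, by its only combination. The other 4 were not decoded, and the list ran from 0.192 to 460.3 reads per kb, with Tfap2c (460.3) and Eomes (47.8) the highest by mean. Of the feeder fibroblast markers, Col1a2 had all 6 reads in L and Col3a1 its only read in I, while Col1a1 (17.5 reads per kb) and Thy1 (64.8) were not decoded and 2 had no matching row. The primitive endoderm markers (1.57 to 100.2 reads per kb, with Sox7 at 100.2 and Gata4 at 19.7) and the mesendoderm and neural markers (1.72 to 41.2, with Sox1 at 41.2 and Pax6 at 16.2) were not searched. Their part in the members' values was not tested.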

How the data were processed

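RNA from WT and D2018A LF2 cells was depleted of ribosomal RNA and sequenced as single-end reads of 50 bases. Per the submitters' processing notes, the authors used STAR 2.5.3a, GRCm38.p6 and DESeq2 1.20.0. Whether strand was used in counting is not given in the sources used here. The deposited signal is the authors' mean of normalised reads over all libraries of their fit. The deposited table also holds the authors' log2 fold change with its standard error, statistic, p-value and adjusted p-value for D2018A against WT, which were not used.

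The planned edgeR comparison of genotypes was not run, because it needs counts per library. The members and lists were chosen with earlier results of these data known. All members were named, with Zscan4 genes that have a row, the 2 of each list with the highest mean and up to 8 activators or repressors by mean. Other genes (Zscan4-ps1 to Zscan4-ps3, AW822073, Gm10807, Col1a2, Col3a1, Cdx2, Elf5, Lin28a, Max, Usp17lb, Usp17ld and Usp17le, and those of the closing section) were named after their values were seen.

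Values shared by at least 30 genes that were no sum of lower ones were taken as 1 read in 1 library. Reads per library were searched over all libraries up to a mean of 2.1 and over at most 4 libraries above, within the rounding of the column (5e-10). The search was tested on simulated data. Exon lengths and transcripts came from GENCODE vM21 (GRCm38), which held 19342 of the 19429 genes, and 50-base stretches were matched on both strands to all its transcripts. Coding sequences were aligned with MAFFT 7.526 under Python 3.11.15 with NumPy 2.4.6. RefSeq promoters were matched for 6 of the 10 listed genes.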

Additional observations from a re-analysis of the deposited data

How the results depend on the processing

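Of the 10 listed genes, 6 had a mean of at least 0.1, against 4 with at least 1, and 0 had at least 10. In an alternative chosen after seeing the data, leaving out libraries I and L gave 0 genes with a mean of at least 1. That value holds for the combinations in the fewest libraries and is not settled for Zscan4d, Zfp352 and Usp17la. The median level of the 6 genes was 0.732 reads per kb with the union of exons and with the longest transcript, and 1.36 over unique stretches only. The median percent of genes with a lower mean was 20.2 among all genes, 15.1 among protein-coding genes, and 5.64 for the 4 genes that remain when ranking covers means of at least 1 alone. The median share of unique stretches over the 10 genes was 51.7% at 50 bases, 24.4% with 1 mismatch and 73.1% at 100 bases. In further alternatives chosen after seeing the data, asking for 20 genes per single-read value gave 12 libraries and asking for 40 gave 10, since 2 libraries have fewer genes on their value. With 4 times the rounding, the combination in the fewest libraries had the same reads in I and L for Zscan4c, Zscan4d, Zfp352, Tcstv3 and Duxf3. The number of combinations rose from 1 to 3 for Zscan4c, from 19 to 42 for Zscan4d and from 8 to 20 for Zfp352, and with the usual rounding the others of Zscan4d and Zfp352 already placed as few as 0 and 1 reads there. The search of the whole genome was not run. No paired analysis was possible because the values are means over all libraries. The alternatives for the genotype comparison were not run for the same reason.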

Other observations

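Further genes of the 2-cell embryo varied in where their reads lay, each by its only combination. Gm21818, which shares 19.0% of the Tcstv3 stretches, had 3 reads in I, Tdpoz4 had 3 in I, and Gm5039 had 1 in I and 1 in L. Gm8300 had 2 reads in I, 2 in L and 1 in A, and Arg2, which encodes an arginase, had 4 in I and 5 in L out of 13. Tdpoz1 had its 6 reads in D, and Gm5662 had 5 of 10 in E, 4 in I and none in L. Gm13119 had 3 of its 11 reads in I and none in L.

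The pair I and L was picked after the members' reads were seen. Among decoded genes with at least 8 reads, 4.09% had over 80% of them in I and L, and among those with at least 2 reads 13.9% had all of them there. Of 664 genes with a mean from 1.3 to 2.1, 40.4% had a combination in at most 4 libraries, and 36 (5.42%) had such a combination with over 80% of the reads in I and L. These 36 held 3 members (Zscan4c, Zscan4d and Zfp352) together with Zscan4b and Usp17lb, and the remaining 31 included genes with no listed tie to the 2-cell stage, such as Cdx2, Igf1, Foxp2 and Hoxd1.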
